A study of Mus musculus with 4 samples.

Results

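The receptors through which the IgG of arthritogenic serum meets cells were followed in mouse fracture callus across 19 cell classes and 4 single-cell libraries. The 6 genes, out of 32285 in the deposited annotation, were taken by name as the Fc gamma receptor family with its partners: *Fcgr1*, *Fcgr3* and *Fcgr4*, which encode activating receptors, *Fcgr2b*, which encodes the inhibitory receptor, *Fcer1g*, which encodes the signalling chain shared by the activating receptors, and *Fcgrt*, which encodes the heavy chain of the neonatal Fc receptor. All 6 were detected. The choice was made by name and not by a rule on their values, although earlier results of these data were then known. The genes were left out of the variable genes that grouped the cells.

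Callus was taken from the tibiae of wild-type C57BL/6J mice, 3 months old, at 4 or 7 days post-fracture (dpf). The mice were male by the study's methods. RA callus came from mice injected with K/BxN serum on days 0 and 3, which transfers an antibody-driven arthritis, and control callus came from mice given vehicle. Each of the 4 combinations was pooled into a single 10x Genomics 3′ library, so no difference between conditions could be tested and a library cannot be told apart from its condition. Every interval below is an exact 95% interval on the molecules or cells counted and covers counting error only.

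After the cell filter, 25479 of 34038 barcodes remained, with 4110 to 8223 cells and a median of 16093 to 17631 UMIs (unique molecular identifiers, each counting 1 captured molecule) per library. Between 5 and 15 barcodes were shared by any pair of libraries, and Scrublet marked 0.876% to 3.60% of cells as doublets. Clustering gave 32 clusters, of which 28 could be named from marker genes and 4, holding 1227 cells, could not. Names mean likeness to the markers only. Macrophage-like cells fell into 3 classes, *Arg1*-high, resident-like (*Mrc1*, *Folr2*) and MHC class II-high, of 1302 to 2506 cells together in a library. A dendritic cell-like cluster with mixed leading genes is called cluster 12. The filter, which asked among other limits for at least 2000 detected genes and 4000 UMIs, kept few neutrophils: 27, 54, 148 and 32 neutrophil-like cells stayed in the control 4 dpf, control 7 dpf, RA 4 dpf and RA 7 dpf libraries.

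Fc gamma receptors bind the constant part of IgG and let phagocytes sense immune complexes. The activating receptors signal through an ITAM, a tyrosine motif carried by the *Fcer1g* chain, which recruits the kinase Syk, whereas Fcgr2b carries the opposing ITIM and recruits the lipid phosphatase encoded by *Inpp5d*. The balance between both kinds sets the threshold at which a cell answers an immune complex. The neonatal Fc receptor, despite its name, works throughout life and returns internalised IgG to the surface instead of letting it be degraded, and it pairs with the product of *B2m*.

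In the mm10 (GRCm38) gene models *Fcgr2b* (chr1:170958617-170976547), *Fcgr4* (chr1:171018920-171029761), *Fcgr3* (chr1:171051174-171064935) and *Fcer1g* (chr1:171229572-171234365) lie on chromosome 1, *Fcer1g* at some distance from the rest, with *Fcgr4* on the plus strand and the other three on the minus strand. *Fcgr1* (chr3:96282909-96293969, minus) and *Fcgrt* (chr7:45092990-45103851, minus) lie apart. The 120 bases upstream of the RefSeq start of the 3 activating receptors and of *Fcgr2b* are shown here because these genes differed in macrophage-like cells. *Fcgr1* and *Fcgr4* were both higher in RA than in control callus at 4 dpf and both lower at 7 dpf. *Fcgr3* and *Fcgr2b* stood close to control and were both slightly lower at both times. The windows are written 5′ to 3′ along each gene's own strand, and capitals mark GAGGAA or its reverse complement TTCCTC, a core bound by the myeloid factor encoded by *Spi1*.
*Fcgr1*, chr3:96293970-96294089 (minus): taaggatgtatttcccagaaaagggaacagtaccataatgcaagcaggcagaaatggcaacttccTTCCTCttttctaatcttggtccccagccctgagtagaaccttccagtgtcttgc
*Fcgr3*, chr1:171059404-171059523 (minus): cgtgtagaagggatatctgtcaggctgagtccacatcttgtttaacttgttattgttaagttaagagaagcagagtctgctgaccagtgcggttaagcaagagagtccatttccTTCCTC
*Fcgr4*, chr1:171018806-171018925 (plus): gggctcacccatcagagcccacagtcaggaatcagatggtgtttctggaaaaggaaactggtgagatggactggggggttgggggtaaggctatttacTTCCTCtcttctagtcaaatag
*Fcgr2b*, chr1:170976072-170976191 (minus): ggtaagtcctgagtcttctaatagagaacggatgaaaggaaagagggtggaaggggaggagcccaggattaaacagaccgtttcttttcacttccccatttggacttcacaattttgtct
Each of the 3 activating receptors held 1 match, 55 to 50 bases before the start in *Fcgr1*, 6 to 1 in *Fcgr3* and 22 to 17 in *Fcgr4*, and the windows of *Fcgr2b*, *Fcer1g* and *Fcgrt* held none. On either strand 11.6% of 32851 upstream windows of the same length carried this match. The *Fcgr1* window also held TTCNNNGAA, a palindromic STAT element, 109 to 101 bases before the start, found in 3.15% of all windows and in none of the other 5. *Fcgr3* had 2 RefSeq promoter entries. Its window comes from the first, whose start lies inside the mm10 gene model, and matches in the other are not given. The *Fcgr2b* window also lies inside its mm10 gene model, so the matches hold for these starts only. Window length and motifs were chosen after the levels had been seen, and a match is a description of the letters only.

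The macrophage-like classes and the monocyte-like cells carried the highest levels of all 3 activating receptors and of *Fcgr2b*. Levels are given as CPM, the UMIs of a gene per 1000000 UMIs of the class, and each captured molecule counts once. How fully each gene was captured and mapped is unknown, so comparisons between genes, ratios included, describe counted molecules only. *Fcgr1*, the high-affinity receptor that also binds single IgG molecules, had its highest median over the 4 libraries in MHC class II-high macrophage-like cells (251 CPM, range 157 to 305), followed by resident-like macrophages (214, 177 to 256), *Arg1*-high macrophage-like cells (133, 111 to 184) and monocyte-like cells (131, 69.6 to 179). These 4 ranges overlapped each other. Cluster 12 followed at 21.4 CPM (7.94 to 34.4), the single step in the order of 19 classes at which neighbouring ranges did not overlap. *Fcgr4*, a receptor of intermediate affinity, had the same leading class, with 132 CPM (106 to 142) in MHC class II-high cells, 87.3 (65.0 to 109) in resident-like macrophages and 56.9 (50.2 to 61.3) in *Arg1*-high cells, and the last pair did not overlap.

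*Fcgr3* and *Fcgr2b* were led by the resident-like macrophages instead. *Fcgr3*, the low-affinity receptor for immune complexes, reached 456 CPM there (439 to 528), above and not overlapping the MHC class II-high cells at 304 CPM (232 to 355). Monocyte-like cells had 252 CPM (206 to 300), *Arg1*-high cells 232 (181 to 285) and neutrophil-like cells 148 (96.3 to 166), the one class outside the mononuclear phagocytes with *Fcgr3* of that order. *Fcgr2b* stood at 676 CPM (586 to 704) in resident-like macrophages, 485 (407 to 545) in MHC class II-high cells, 333 (266 to 388) in *Arg1*-high cells and 176 (125 to 207) in monocyte-like cells, and none of these neighbours overlapped. *Fcgr2b* and *Fcgr3* are similar in sequence over part of their length, and *Fcgr2b* overlaps an annotated antisense gene, so reads could in part be split or lost between them.

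*Fcer1g* was the most abundant of the 6 in every phagocyte class. Its medians were 2634 CPM in MHC class II-high cells, 2271 in resident-like macrophages, 2190 in monocyte-like cells and 1785 in *Arg1*-high cells. Cluster 12 (1159 CPM), neutrophil-like (1153), T and NK lymphocyte-like (820, range 704 to 958), osteoclast-like (754) and mast cell and basophil-like cells (637) also carried it. This chain also serves receptors other than those for IgG, such as the IgE receptor of mast cells. *Fcgrt* had a different order. Resident-like macrophages led with 372 CPM (251 to 532), but fibroblast-like cells (179, 146 to 183), tenocyte precursor-like cells (170), fibroblast precursor-like cells (135) and lymphatic endothelium-like cells (130) came before the MHC class II-high cells (113, 63.9 to 145), and monocyte-like (14.8) and neutrophil-like cells (14.3) were near the bottom.

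**Figure D1:**
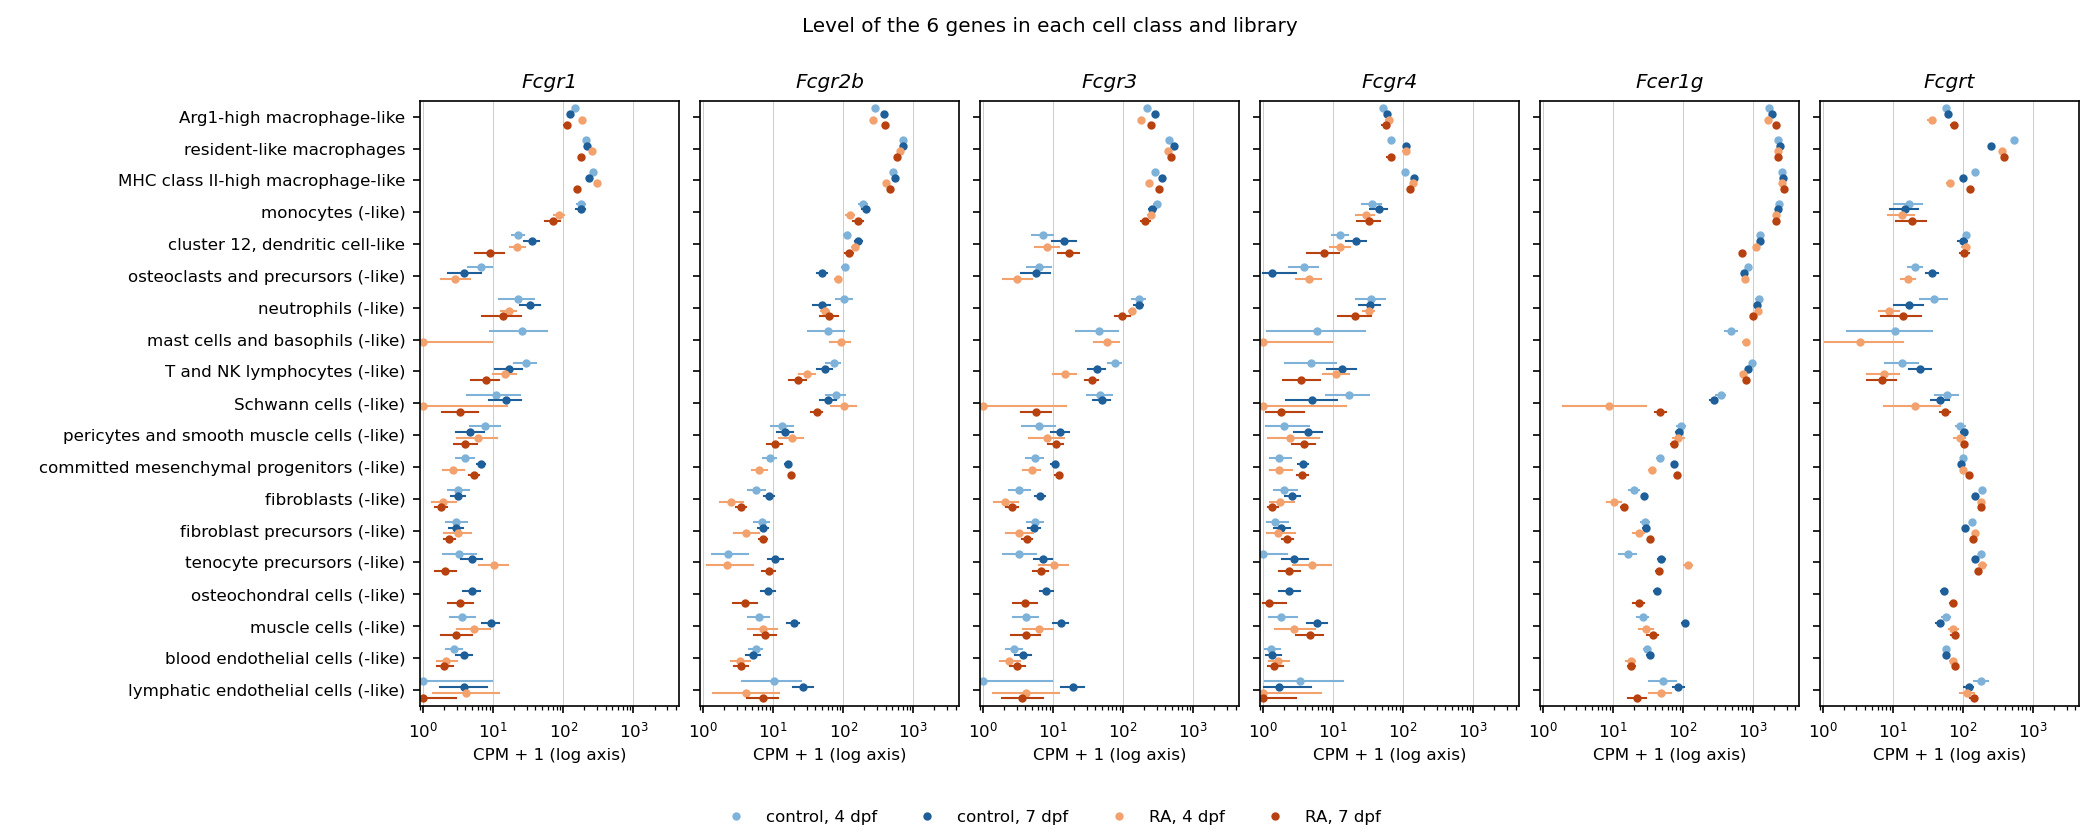
Level of each gene (CPM + 1, log axis) in the 19 cell classes, 1 point per library with its 95% counting interval. The 4 receptor genes sit far lower in the mesenchymal, muscle and endothelial classes at the bottom than in the phagocyte classes at the top, whereas *Fcgrt* lies between 52.7 and 187 CPM in the mesenchymal and endothelial classes shown.

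As a share of all UMIs, macrophage-like cells held 82.7% to 89.6% of the *Fcgr1*, 80.4% to 84.9% of the *Fcgr2b*, 79.1% to 87.8% of the *Fcgr3*, 83.0% to 88.8% of the *Fcgr4* and 67.2% to 76.5% of the *Fcer1g* molecules of a library while making up 15.8% to 45.8% of its cells. Of *Fcgrt* they held 13.6% to 53.7% and mesenchymal classes 27.5% to 68.3%. Over all cells *Fcgr2b* was 184, 105, 138 and 58.3 CPM and *Fcgr1* 76.8, 37.9, 71.7 and 17.4 CPM in the control 4 dpf, control 7 dpf, RA 4 dpf and RA 7 dpf libraries. In such a sum over the whole callus fewer phagocytes and less receptor RNA per phagocyte cannot be told apart, and the comparisons below were made within classes.

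RNA set free from phagocytes can place receptor molecules in droplets of other cells. As a measure of it, each level was divided by the level expected if the class held phagocyte RNA alone, taken from 6 abundant phagocyte genes (*Tyrobp*, *Lyz2*, *C1qa*, *C1qb*, *C1qc* and *Cd68*) and their ratio to the receptor over the haematopoietic cells of the library. Over all mesenchymal cells this observed to expected ratio was 0.869 to 1.08 for *Fcgr1*, 0.805 to 1.12 for *Fcgr2b*, 0.958 to 1.14 for *Fcgr3* and 0.734 to 1.05 for *Fcgr4*, so the low receptor levels there were of the size that phagocyte RNA brings. *Fcgrt* stood 51.5 to 105 times above it in the same cells, 102 to 336 times in fibroblast-like cells and 40.5 to 108 times in blood endothelium-like cells. In fibroblast-like cells with at most 1 UMI of the 6 reference genes, *Fcgrt* was still 179, 150, 170 and 183 CPM in the 4 libraries, in the order given above.

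Cluster 12 and the osteoclast-like cells held *Fcgr2b* without a matching amount of *Fcgr3*. Cluster 12 held *Fcgr2b* at 112, 163, 147 and 120 CPM, 2.13 to 2.99 times the expected level, whereas its *Fcgr3*, at 6.11 to 15.9 CPM, lay at 0.183 to 0.468 of it. Osteoclast-like cells held *Fcgr2b* at 104, 48.2 and 83.9 CPM in the 3 libraries with at least 20 such cells and *Fcgr3* at 2.08 to 5.30 CPM, or 0.775 to 1.38 times the expected level for *Fcgr2b* and 0.0519 to 0.105 for *Fcgr3*. At resolution 0.5, where the class held 179 to 303 cells in these libraries, *Fcgr2b* was 157, 101 and 101 CPM. Both classes make some of the 6 reference genes themselves, so for them the measure compares proportions between genes and not free RNA. In mast cell and basophil-like cells, counted in 21 and 38 cells at 4 dpf, *Fcgr2b* (58.9 and 90.6 CPM) and *Fcgr3* (44.2 and 58.0 CPM) both exceeded it, by 2.37 and 3.35 times and by 2.79 and 3.25 times in control and RA callus. The cluster also held B cell markers, among them *Igkc*: the summed level of the 7 B and plasma cell markers was 3443 and 938 CPM, beside 4897 and 5879 CPM of the 7 mast cell and basophil markers, and *Jchain* was at 0. B cells are known to carry *Fcgr2b*, and their part in its level here was not tested. Single mast cell and basophil markers also differed between these libraries. *Mcpt4* was 1660 CPM in control and 0 in RA callus, *Cma1* 1557 and 48.8 CPM and *Mcpt8* 506 and 3599 CPM. The control and RA cells of this class may thus differ in type, and the part of this in the receptor levels was not tested.

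The Schwann cell-like class carried *Fcgr2b* as well. Its levels were 77.5, 60.0, 102 and 40.5 CPM, on 39, 59, 26 and 103 UMIs. In the control libraries these were 1.33 and 0.766 times the level expected from phagocyte RNA, which was high in that class, while in the RA libraries they were 89.8 (58.7 to 132) and 4.51 (3.68 to 5.47) times it. These intervals count the *Fcgr2b* UMIs alone and take the expected level as known. In the RA 4 dpf library that level rests on 43.2 CPM of reference genes among 254894 UMIs, so the true counting error there is wider. At 4 dpf in RA callus the 20 cells held 26 *Fcgr2b* UMIs but 0 of *Fcgr1*, *Fcgr3* and *Fcgr4*, which allows up to 14.5 CPM of each, and 5 of the 6 mononuclear phagocyte markers were at 0. Thinned to 4000 UMIs, 2 of these 20 cells had an *Fcgr2b* molecule, so the level in that library rests on few cells. In the 158 cells of the RA 7 dpf library with at most 1 reference UMI and no doublet mark, 20 cells held 66 *Fcgr2b* UMIs, or 32.1 CPM (24.8 to 40.8), and in 46 such cells of the control 7 dpf library 9 UMIs gave 16.7 CPM. With cells thinned to 4000 UMIs, 10.0% to 16.7% of Schwann cell-like cells had an *Fcgr2b* molecule, beside 1.49% to 3.23% of mesenchymal, 0.637% to 2.92% of muscle-like and 0.676% to 1.75% of blood endothelium-like cells. The Schwann marker *Sox10* was present in this class in every library.

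*Fcer1g* exceeded the expected level in T and NK lymphocyte-like cells, 1.58, 3.27, 3.27 and 3.94 times, where the leading genes of the main cluster included *Gzma*, *Nkg7* and *Xcl1* of NK cells, and *Fcgr2b* there was at or below it (0.590 to 1.01). In the 26 to 90 lymphocyte-like cells with at most 1 reference UMI, a cut that counts *Tyrobp*, which NK cells make, *Fcer1g* read 25.7, 90.5, 111 and 118 CPM. Osteoclast-like cells, which use the chain with the receptor encoded by *Oscar*, held it at 2.10 to 2.38 times the expected level. Blood endothelium-like cells held *Fcer1g* at 1.18 to 1.94 times the expected level, with the interval above 1 in all 4 libraries, at only 17.0 to 32.1 CPM.

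**Figure D2:**
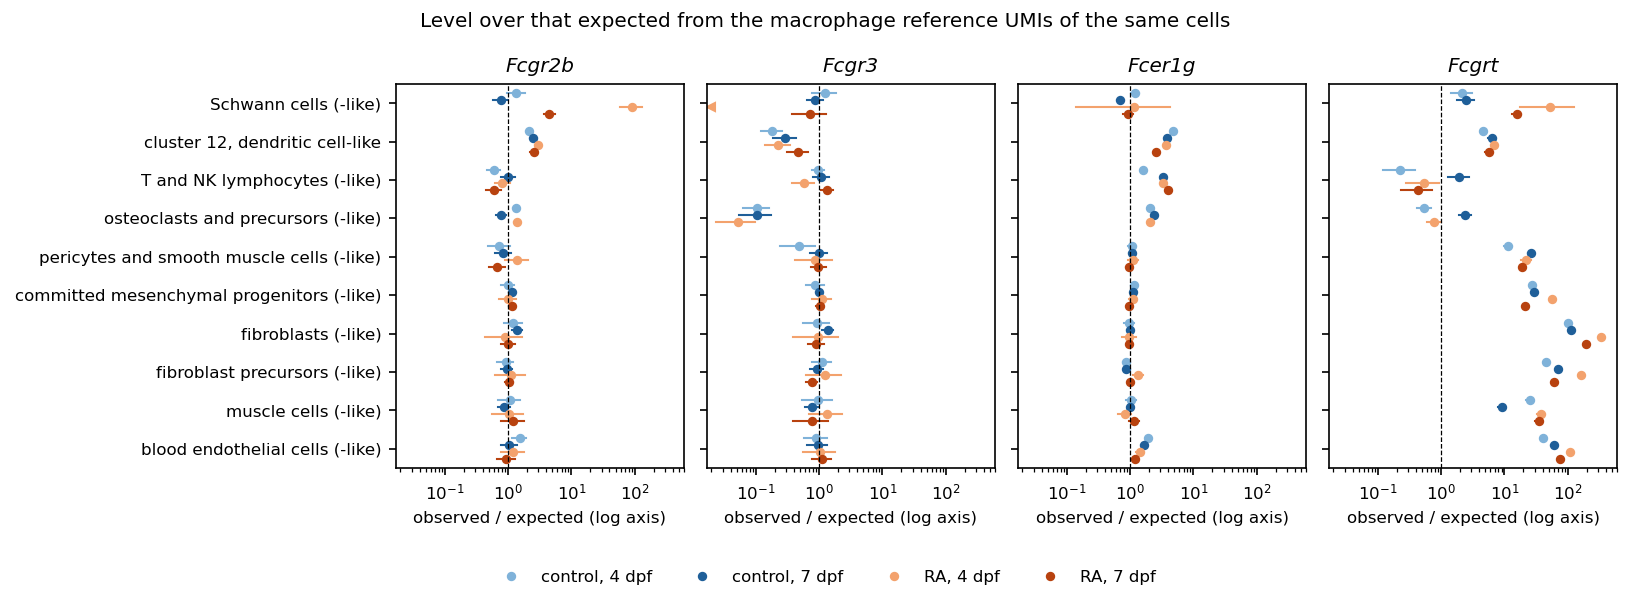
Level of 4 genes divided by the level expected from phagocyte RNA in the same class (log axis), 1 point per library with its 95% counting interval, a dashed line at 1 and a triangle at the left edge for a class with 0 UMIs. The intervals cover the UMIs of the gene and take the expected level as known. Most classes outside the phagocytes sit near 1 for *Fcgr2b* and *Fcgr3*. For *Fcer1g*, cluster 12, T and NK lymphocyte-like, osteoclast-like and blood endothelium-like cells have the interval above 1 in every library shown. Cluster 12 and the 2 RA libraries of the Schwann cell-like class lie to the right for *Fcgr2b*, and *Fcgrt* lies far to the right in every mesenchymal and endothelial class.

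The balance of receptors in 7 phagocyte classes spanned a wider range between classes than between the libraries of any of them. The activating to inhibitory ratio is the summed UMIs of *Fcgr1*, *Fcgr3* and *Fcgr4* over those of *Fcgr2b*. In resident-like macrophages it was 1.03, 1.21, 1.23 and 1.22 in the control 4 dpf, control 7 dpf, RA 4 dpf and RA 7 dpf libraries, in *Arg1*-high cells 1.43, 1.22, 1.60 and 1.07, and in MHC class II-high cells 1.31, 1.34, 1.66 and 1.30. Without *Fcgr1* these ratios did not exceed 1: with *Fcgr3* and *Fcgr4* alone as activating receptors the ratio of all macrophage-like cells was 0.803, 0.907, 0.878 and 0.895. Among the activating receptors of all macrophage-like cells, *Fcgr3* was nonetheless the largest part. It made up 29.2%, 31.5%, 26.3% and 32.4% of the UMIs of the 4 receptors, beside 19.2%, 15.8%, 23.5% and 14.1% for *Fcgr1*. *Fcgr2b* made up 44.8%, 44.2%, 40.7% and 45.3%. In the RA 4 dpf library *Fcgr1* exceeded *Fcgr3* in MHC class II-high cells, with 45.2% and 34.4% of activating UMIs. In *Arg1*-high cells of that library they made up 43.1% and 42.5%. The ratio of monocyte-like cells lay above all those of the macrophage-like classes, at 2.67, 2.30, 2.89 and 1.92. Neutrophil-like cells spread from 2.07 to 4.79 on 27 to 148 cells. Cluster 12, at 0.354, 0.419, 0.272 and 0.252, and osteoclast-like cells, at 0.132, 0.162 and 0.0882, lay below 1. Each library of both lay below every library of the macrophage-like, monocyte-like and neutrophil-like classes.

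**Figure D3:**
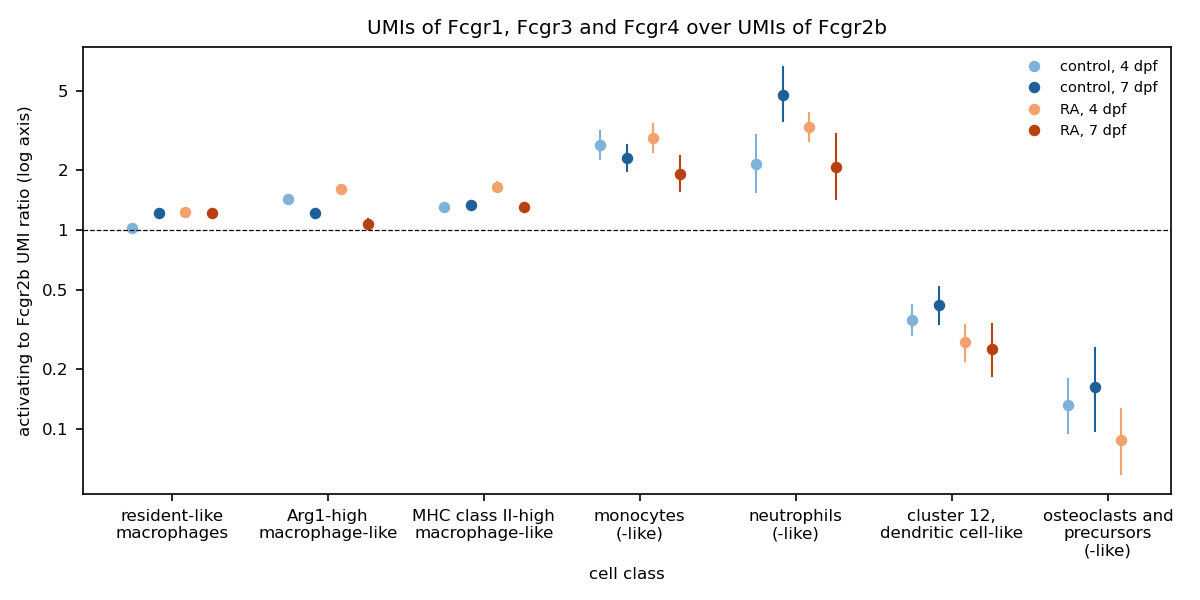
UMIs of the 3 activating receptor genes over UMIs of *Fcgr2b* (log axis) in 7 classes, 1 point per library with its 95% counting interval, a dashed line at 1. Macrophage-like classes sit between 1.03 and 1.66, monocyte-like and neutrophil-like cells above them, and cluster 12 and osteoclast-like cells below 0.5.

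Most macrophage-like cells, with the classes pooled, held both kinds of transcript at once. With each cell thinned to 4000 UMIs, 59.4%, 62.5%, 52.3% and 62.0% of them had an *Fcgr2b* molecule and an activating receptor molecule, 19.6%, 18.2%, 23.7% and 16.9% had an activating molecule alone and 12.5% to 14.9% *Fcgr2b* alone. The RA 4 dpf library had the lowest share with both and the highest with an activating receptor alone. In resident-like macrophages 77.2% to 80.5% of cells had both. Monocyte-like cells had an activating molecule alone in 38.1% to 46.3% of cells, and cluster 12 had *Fcgr2b* alone in 23.6% to 33.9%.

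At 4 dpf the macrophage-like cells of RA callus held more *Fcgr1* and *Fcgr4* and less *Fcgrt* than those of control callus. *Fcgr1* was 192 CPM in control and 237 in RA callus, a ratio of 1.23 (1.19 to 1.28), and *Fcgr4* was 68.7 and 95.1 CPM, a ratio of 1.38 (1.31 to 1.47). *Fcgr2b* (450.3 and 410.0 CPM) and *Fcgr3* (293 and 265 CPM) were both slightly lower, at 0.911 and 0.905 of control, and *Fcer1g* was level at 0.995 (0.984 to 1.01). *Fcgrt* was 205 and 132 CPM, a ratio of 0.644 (0.617 to 0.671). A ratio past 1.5-fold was reached by 0 of the 6 genes upward and by 1, *Fcgrt*, downward, beside 1.27% and 2.81% of the 12472 genes with at least 50 UMIs in these cells.

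At 7 dpf the same 3 genes lay on the other side of control. *Fcgr1* was 179 CPM in control and 146 in RA callus, a ratio of 0.817 (0.776 to 0.859), and *Fcgr4* was 96.7 and 84.6 CPM, a ratio of 0.875 (0.817 to 0.936). *Fcgr2b* and *Fcgr3* were again slightly lower, at 0.940 and 0.943, and *Fcer1g* was 1.07 times control. *Fcgrt* was 111 and 178 CPM, a ratio of 1.60 (1.52 to 1.69), and it was the 1 gene of the 6 past 1.5-fold upward, with 0 downward, beside 3.37% and 1.58% of 12022 genes. With the 3 macrophage-like classes weighted equally *Fcgrt* was 1.42 times control and no longer past 1.5-fold. The differences of *Fcgr1*, *Fcgr4* and *Fcgrt* thus exceed counting error, but the spread between mice or between libraries of 1 condition is unknown here.

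The 3 macrophage-like classes, which share libraries, showed these directions of *Fcgr1* and *Fcgrt* each on its own. For *Fcgr4* at 7 dpf the interval of *Arg1*-high cells included 1. *Fcgrt* was at 0.617, 0.680 and 0.440 of control at 4 dpf and at 1.23, 1.52 and 1.27 at 7 dpf in *Arg1*-high, resident-like and MHC class II-high cells. In resident-like macrophages, where its level was highest, *Fcgrt* read 532, 251, 362 and 382 CPM, so the control 4 dpf library was highest and the control 7 dpf library lowest. Markers of the class had the same highest and lowest libraries: in the same library order *Cbr2* read 662, 281, 378 and 381 CPM, *Cd163* 179, 46.2, 166 and 130 CPM, *Lyve1* 52.9, 14.3, 24.6 and 22.9 CPM and *F13a1* 1333, 861, 961 and 1133 CPM. *Folr2* (487, 305, 310.4 and 621 CPM) and *Mrc1* (1620 to 2160 CPM) were also lowest there but highest in the RA 7 dpf library, and *Pf4* was lowest in that library. *Arg1*-high cells read 760, 255, 210 and 150 CPM of *Arg1* and 13107, 3656, 4133 and 3216 CPM of *Spp1*. Their *Hmox1* read 2581, 3014, 2639 and 896 CPM and their *Mmp12* 83.8, 286, 144 and 600 CPM. MHC class II-high cells read 2606, 2896, 1776 and 2938 CPM of *C1qa*. Their *H2-Aa* read 3523, 4693, 2680 and 5257 CPM, and *Ms4a7* differed less (968 to 1198 CPM). The part of these markers in the ratios of the 6 genes was not tested. In the class order given first, *Fcgr1* was at 1.28, 1.22 and 1.14 of control at 4 dpf and at 0.902, 0.817 and 0.668 at 7 dpf. *Fcgr4* differed most in resident-like macrophages, which read 66.7, 109, 108 and 65.0 CPM: a ratio of 1.62 (1.45 to 1.80) at 4 dpf and of 0.596 (0.514 to 0.690) at 7 dpf. Among the 6 genes, 1 in *Arg1*-high cells (*Fcgrt*) and 1 in MHC class II-high cells (*Fcgrt*) were past 1.5-fold lower at 4 dpf, where 3.5% and 4.01% of genes were, and 1 in resident-like macrophages (*Fcgr4*) was past 1.5-fold higher, where 2.23% were. At 7 dpf *Fcgrt* was past 1.5-fold higher and *Fcgr4* lower in resident-like macrophages, where 5.4% and 3.84% of genes were. Without integration, where the resident-like class held 128 to 326 cells in place of 338 to 589, the log2 ratios at 7 dpf were 0.21 for *Fcgrt*, in place of 0.60, and -1.18 for *Fcgr4*, in place of -0.74.

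Within the clusters that make up these classes the picture was less even. *Fcgr1* at 4 dpf was higher in RA callus in 4 of the 5 macrophage-like clusters, for example at 294 and 372 CPM in cluster 3, which is led by *Apoe* and the *C1q* genes, and lower in cluster 14, which is led by *Retnla* and MHC class II genes, at 212 and 176 CPM. At 7 dpf it was lower in 4 of 5, for example at 194 and 111 CPM in cluster 14, and higher in cluster 0 (127 and 136 CPM). *Fcgrt* at 4 dpf was lower in all 5 clusters, and at 7 dpf higher in 4 of 5, the exception being the *Mmp12*-high cluster 9 with 53 and 26 UMIs. When the 3 classes were weighted equally, so that their shares of cells could not move the value, the RA to control ratios at 4 and 7 dpf were 1.20 and 0.774 for *Fcgr1*, 1.38 and 0.794 for *Fcgr4* and 0.628 and 1.42 for *Fcgrt*.

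**Figure D4:**
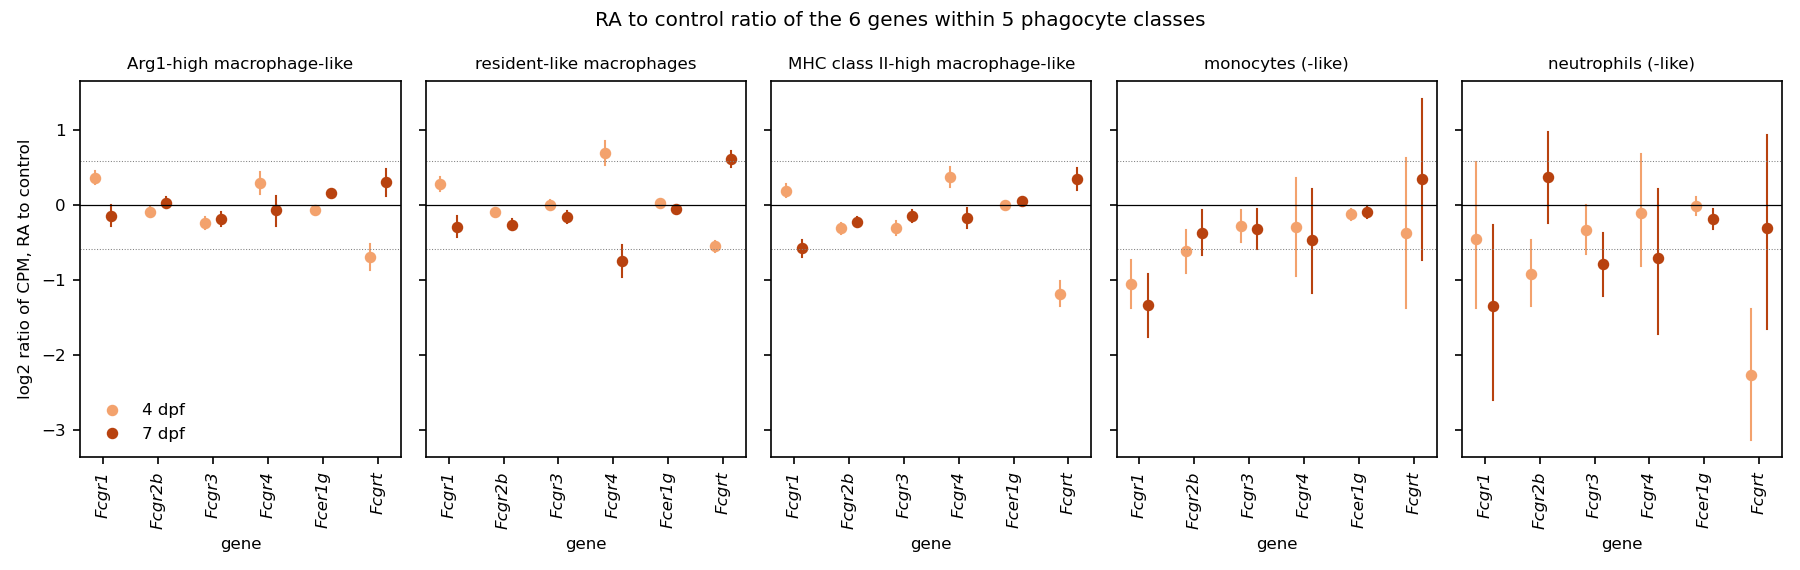
RA to control ratio (log2 of the CPM ratio) of the 6 genes at 4 and 7 dpf in 5 phagocyte classes with its 95% counting interval. Solid lines mark no difference and dotted lines 1.5-fold. In the 3 macrophage-like classes *Fcgr1* and *Fcgr4* lie above 0 at 4 dpf and below it at 7 dpf, and *Fcgrt* does the opposite, with the interval of *Fcgr4* in *Arg1*-high cells at 7 dpf including 0. In monocyte-like cells *Fcgr1* lies below 0 at both times.

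The activating to inhibitory ratio of all macrophage-like cells was 1.23 in control and 1.46 in RA callus at 4 dpf, a change of 1.18-fold (1.14 to 1.22), and 1.26 and 1.21 at 7 dpf, a change of 0.954-fold (0.917 to 0.992). At 4 dpf the change was 1.12-fold in *Arg1*-high, 1.20-fold in resident-like and 1.27-fold in MHC class II-high cells. Without *Fcgr1* the change at 4 dpf was 1.09-fold in all macrophage-like cells, 0.981-fold in *Arg1*-high cells, 1.15-fold in resident-like and 1.17-fold in MHC class II-high cells. By cluster it was not uniform, since the ratio in control and RA callus was 1.37 and 1.98 in cluster 3 and 1.48 and 1.81 in cluster 0, but 1.28 and 1.10 in cluster 9 and 1.13 and 1.00 in cluster 14. At 7 dpf the change was 0.876-fold (0.814 to 0.941) in *Arg1*-high cells, and in resident-like and MHC class II-high cells its interval included 1. In *Arg1*-high cells cluster 9, whose own ratio at 7 dpf was 0.848 and 0.567, made up 25.4% of control and 38.7% of RA cells. In cluster 0, the larger part of the class, the ratio at 7 dpf was not lower in RA callus, at 1.34 in control and 1.36 in RA callus. *Fcgr1* made up 19.2% of the molecules of the 4 receptors in control and 23.5% in RA callus at 4 dpf, and 15.8% and 14.1% at 7 dpf.

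Monocyte-like cells differed from the macrophage-like cells at 4 dpf. Their *Fcgr1* was 179 and 176 CPM in control callus at 4 and 7 dpf and 86.6 and 69.6 CPM in RA callus. The ratio was 0.483 (0.387 to 0.602) at 4 dpf and 0.397 (0.295 to 0.527) at 7 dpf. Both RA libraries lay below both control libraries, and the share of all genes ordered in this way is not given here. *Fcgr2b* stood at 0.649 and 0.773 of control and *Fcgr3* at 0.823 and 0.797. Of the 5 genes with at least 50 UMIs, 2 (*Fcgr1* and *Fcgr2b*) were past 1.5-fold lower at 4 dpf and 1 (*Fcgr1*) at 7 dpf, beside 7.74% and 5.82% of genes. The log2 ratio of *Fcgr2b* at 4 dpf, -0.62, was no longer past 1.5-fold with TMM scaling (-0.51) or without integration (-0.48). The class held 80 to 121 cells in a library. Markers of other states also differed between these libraries. The summed level of the 5 *Arg1*-high macrophage markers in monocyte-like cells was lower in both RA libraries, like *Fcgr1*. It was 1816 and 1810.1 CPM in control and 930.5 and 684 CPM in RA callus. The sum of the 9 neutrophil markers did not follow *Fcgr1*. It was 2783, 11346, 12086 and 3803 CPM in the order control 4 dpf, control 7 dpf, RA 4 dpf and RA 7 dpf. The part of both marker lists in the result was not tested.

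**Figure D5:**
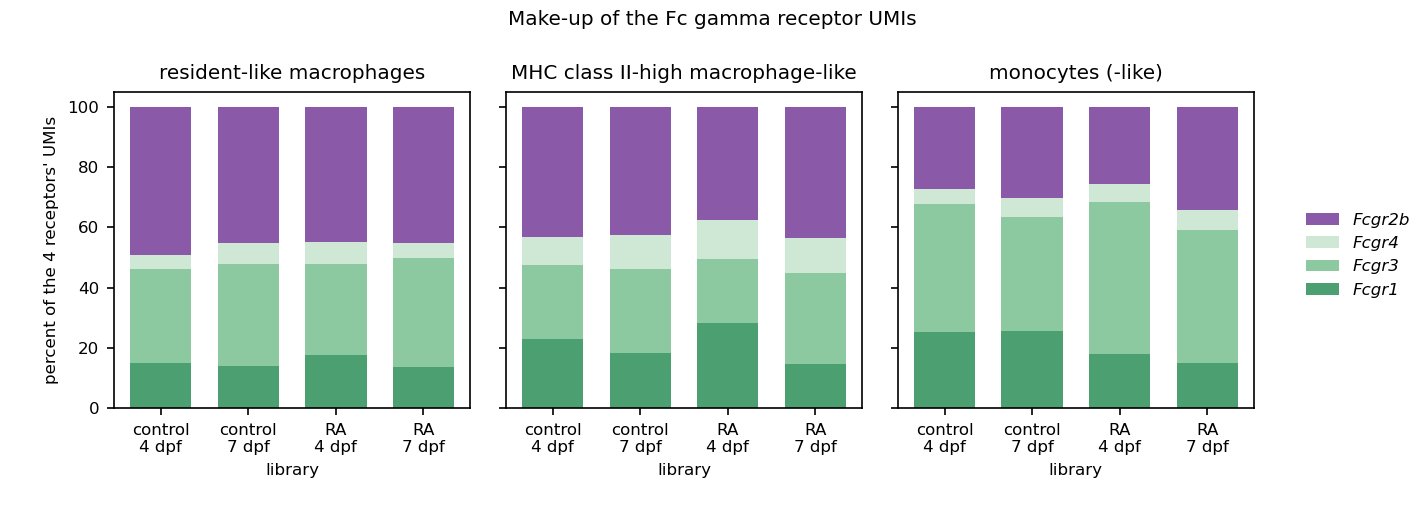
Share of each receptor gene among the UMIs of *Fcgr1*, *Fcgr3*, *Fcgr4* and *Fcgr2b* (percent, stacked to 100) in the 4 libraries of 3 classes. *Fcgr1* takes its largest share of the MHC class II-high cells at 4 dpf in RA callus (28.2%) and its smallest at 7 dpf in RA callus (14.7%), while in monocyte-like cells it takes 25.4% and 25.7% in control and 17.8% and 14.9% in RA callus and *Fcgr3* takes 37.7% to 50.8%.

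In neutrophil-like cells *Fcgr3* was 165 CPM (133 to 202) and 131 CPM (119 to 143) in control and RA callus at 4 dpf and 166 CPM (143 to 193) and 96.3 CPM (74.8 to 122) at 7 dpf. The activating to inhibitory ratio changed 1.52-fold (1.05 to 2.19) at 4 dpf, from 2.16 to 3.28, and 0.433-fold (0.264 to 0.711) at 7 dpf, from 4.79 to 2.07. The control libraries held 27 and 54 of these cells with 57 and 52 *Fcgr2b* UMIs, and their own ratios were the 2.16 and 4.79 just given. The change at 4 dpf ran from 1.01-fold to 2.08-fold over the alternative ways of grouping and filtering the cells, and that at 7 dpf from 0.272-fold to 0.575-fold. Markers of this class, whose leading genes included *Ngp* and *Camp*, also differed between its libraries. In the order control 4 dpf, control 7 dpf, RA 4 dpf and RA 7 dpf, *Retnlg* read 4933, 2522, 1647 and 1429 CPM. *Mmp8* read 287, 390, 331 and 119 CPM and *Ngp* 17664, 15898, 22986 and 15693 CPM. *Ly6g* differed less, at 163, 172, 143 and 118 CPM. The part of these markers in the change of the ratio was not tested. *Fcgrt* was low in these cells and rested on few molecules, with 37.6 and 7.81 CPM in control and RA callus at 4 dpf on 21 and 29 UMIs and 15.8 and 12.7 CPM at 7 dpf on 17 and 9 UMIs. In cluster 12 *Fcgr1* was 34.4 CPM in control and 7.94 CPM in RA callus at 7 dpf (64 and 15 UMIs) and *Fcer1g* 1230 and 681 CPM. *Fcgr4*, at 20.4 and 6.36 CPM on 38 and 12 UMIs, was the third of the 6 genes past 1.5-fold lower there, where 10.6% of genes were and the median of all genes was shifted by -0.10 on the log2 scale. Dendritic subtype markers moved in the same comparison, *Xcr1* from 30.1 to 84.7 CPM, *Clec9a* from 47.8 to 86.9 CPM, *Cd209a* from 238 to 156 CPM and *Itgax* from 87.6 to 54.5 CPM, and their part in the result was not tested.

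Outside the phagocytes the RA to control ratio of *Fcgrt* had an interval above 1 in 7 of 11 classes at 7 dpf and in 3 of 11 at 4 dpf. The share of all genes with such intervals is not given here. In committed mesenchymal progenitor-like cells it was 99.6 and 97.8 CPM in control and RA callus at 4 dpf and 93.5 and 121 CPM at 7 dpf, ratios of 0.981 (0.891 to 1.08) and 1.30 (1.23 to 1.37). In fibroblast-like cells the ratios were 0.977 (0.904 to 1.06) and 1.23 (1.17 to 1.29). Blood endothelium-like cells held 56.3 and 55.8 CPM in control and 69.7 and 75.1 CPM in RA callus. Both RA libraries lay above both control libraries, and the share of all genes ordered in this way is not given here. Muscle-like cells had the highest ratio at 7 dpf, 1.65 (1.38 to 1.98). T and NK lymphocyte-like cells went the other way at 7 dpf, with 23.6 CPM in control and 5.91 in RA callus on 30 and 14 UMIs, and the intervals of the pericyte, lymphatic endothelium and Schwann cell-like classes included 1. At 4 dpf *Fcgrt* was below control in lymphatic endothelium-like cells, at 0.633 (0.453 to 0.883), and in Schwann cell-like cells, at 0.340 on 5 and 29 UMIs.

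From 4 to 7 dpf the receptors did not move as a block. In control macrophage-like cells *Fcgr4* was 1.41-fold higher (1.33 to 1.49), *Fcgr3* 1.22-fold (1.19 to 1.25) and *Fcgr2b* 1.11-fold (1.09 to 1.14) at 7 dpf, *Fcgr1* was at 0.932 and *Fcgrt* at 0.545 (0.522 to 0.569). *Fcgrt* was the 1 gene past 1.5-fold lower, where 1.55% of genes were, and 0 were past it upward, where 2.9% were. In RA macrophage-like cells *Fcgr1* was at 0.618 (0.588 to 0.649) of its 4 dpf level, the 1 gene past 1.5-fold lower beside 2.92% of genes, and 0 were past it upward, where 7.53% were. *Fcgr3* (1.27-fold), *Fcgr2b* (1.15-fold) and *Fcgrt* (1.35-fold) were higher and *Fcgr4* stood at 0.889. These comparisons share their libraries with those between RA and control callus.

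The genes that act below the receptors are given from lists of their pathway. Of 12 ITAM kinases and adaptors counted in macrophage-like cells, 0 were past 1.5-fold in either direction at either time, and the median log2 RA to control ratio was 0.14 at 4 dpf and 0.08 at 7 dpf beside 0.02 and 0.01 over all genes. At 4 dpf the Src-family kinase *Fgr*, which phosphorylates the ITAM, was at 1.31 of control and the exchange factor *Vav1* at 1.19. *Syk* itself was at 1.12 and 1.06 at 4 and 7 dpf. Of the 7 phosphatases and other brakes 0 were past 1.5-fold: *Inpp5d*, the phosphatase recruited by the inhibitory receptor, was at 1.15 and 0.971, *Ptpn6* at 1.18 and 1.02, and the adaptor *Dok2* at 0.767 and 1.31. Of the 3 other immunoglobulin receptors and partners that were counted, *B2m* among them, 0 were past 1.5-fold. Over all genes of these cells 1.27% were past it upward and 2.81% downward at 4 dpf, and 3.37% and 1.58% at 7 dpf. Counts of 0 in lists this short are near those shares.

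Of 12 effectors known from serum-transfer arthritis, 1 was lower at 4 dpf, *Alox5*, which starts leukotriene synthesis, at 0.373 of control, and 0 were higher. Over all genes of macrophage-like cells 2.81% were lower and 1.27% higher in that comparison. At 7 dpf 4 were higher, the chemokine *Ccl3* at 1.91, the neutrophil chemoattractant *Cxcl2* at 1.64, *Tnf* at 1.60 and the complement component *C3* at 1.59, and 1 was lower, the leukotriene receptor *Ltb4r1* at 0.493. The counts at 7 dpf stand beside the same 3.37% of genes higher and 1.58% lower. *C3* had a median of 55.6 CPM in macrophage-like cells and 782 CPM in mesenchymal cells. The latter were 35.5% of control and 46.2% of RA cells at 7 dpf, and the part of their RNA in its ratio was not tested. Cluster 0 was 33.3% of control and 21.8% of RA macrophage-like cells at 7 dpf. Values of these effectors by cluster or with equal class weights are not given here.

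For each of the 6 genes, the gene whose level over the 19 class means was most like it was taken from all genes. Pearson's r, given as a description over class means that share libraries, was 0.987 for *Fcgr1* with *Ms4a4a*, 0.966 for *Fcgr2b* with *Tbxas1*, 0.987 for *Fcgr3* with the anaphylatoxin receptor gene *C5ar1*, 0.981 for *Fcgr4* with *Cd300ld* and 0.991 for *Fcer1g* with *Tyrobp*, the sister adaptor with an ITAM of its own. *Fcgr1* and *Fcgr4* were alike at 0.973, although they lie on different chromosomes. *Fcgrt* was most like *Marcks*, at 0.855, and its r with the other 5 genes ran from -0.335 to 0.083.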

How the data were processed

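Each library held the callus cells of several pooled mice, whose number the sources used here give in more than 1 way. The authors deposited filtered count matrices from Cell Ranger 7.0.1 on mm10, in which each value is the whole-number UMI count of a gene in a cell. Whether intronic reads were counted is not given in the sources used here. Cells with 4000 to 50000 UMIs, 2000 to 7000 detected genes and at most 8% mitochondrial UMIs were kept, the study's own limits. The 4 libraries were integrated and clustered with Seurat 5.3.0 in R 4.3.3 (2000 variable genes without the 6 members, 15 principal components, Louvain clustering at resolution 1). Clusters were named from marker lists, with naming thresholds set after the clusters had been seen. Doublets were marked with Scrublet in Scanpy 1.11.5 and kept.

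UMIs of a gene were summed over the cells of a class in a library and divided by the class total (CPM). With 1 library per condition no test between conditions was made. Ratios carry exact conditional Poisson intervals, shares Clopper-Pearson intervals (SciPy 1.17.1), all at 95%. Log2 ratios used a pseudocount of 1 CPM, and a ratio past 1.5-fold was counted over genes with at least 50 UMIs in both libraries together, with classes of at least 20 cells. Named beyond the 6 genes are members of the pathway lists past 1.5-fold or among the largest ratios of a list, and the genes most alike over class means. Members and lists were chosen with earlier results of these data known. The scripts were checked on simulated data. Upstream windows came from RefSeq (GRCm38.p6), with 6 of 6 genes matched by symbol. The sequences of the receptor proteins were not used here. Alternatives were a looser cell filter, resolution 0.5, no integration, no doublets, members among the variable genes, TMM scaling, other pseudocounts and minimum counts, *Fcgr3* and *Fcgr4* alone as activating receptors, and thinned cells.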

Additional observations from a re-analysis of the deposited data

Results flagged for a closer look

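In macrophage-like cells the RA to control difference of *Fcgr1*, *Fcgr4* and *Fcgrt* at 4 dpf was opposite to that at 7 dpf, with both counting intervals on their own side of 1. The ratios at 4 and 7 dpf were 1.23 and 0.817 for *Fcgr1*, 1.38 and 0.875 for *Fcgr4* and 0.644 and 1.60 for *Fcgrt*. The difference between the times was not tested, since each time holds 1 library per condition. *Fcgr1* went from 1.28 to 0.902 in *Arg1*-high cells, from 1.22 to 0.817 in resident-like macrophages and from 1.14 to 0.668 in MHC class II-high cells. *Fcgrt* went from 0.617 to 1.23, from 0.680 to 1.52 and from 0.440 to 1.27 in the same order. *Fcgr4* went from 1.62 to 0.596 in resident-like macrophages and from 1.30 to 0.883 in MHC class II-high cells, and in *Arg1*-high cells *Fcer1g* went from 0.948 to 1.12. These 3 classes come from the same 4 libraries and are not independent of each other. Markers of the classes also differed between libraries, and their part in these ratios was not tested.

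The change of the activating to inhibitory ratio also lay on opposite sides of 1 at the 2 times in 3 groups of cells. It was 1.18-fold at 4 dpf and 0.954-fold at 7 dpf in all macrophage-like cells, 1.12-fold and 0.876-fold in *Arg1*-high cells, and 1.52-fold and 0.433-fold in neutrophil-like cells. In cluster 0, the larger part of the *Arg1*-high cells, the ratio at 7 dpf was 1.34 in control and 1.36 in RA callus. These differences between times were not tested either. Markers of the neutrophil-like cells, *Retnlg* and *Mmp8* among them, also differed between libraries, and their part in the ratio was not tested.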

How the results depend on the processing

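All comparisons rest on 1 pooled library per condition, so the spread between mice is unknown, intervals cover counting error only, and a difference within them was not detectable at this depth. No paired analysis was possible because each condition has a single library and no test was made. Of 702 alternative values of RA to control ratios 649 lay inside the counting interval of the reported value, and 3 changed sign where that interval excluded a ratio of 1. Of 690 values of ratios between times 644 lay inside and 5 changed sign in this way. Sign changes of values whose interval included 1 were not counted. The counts of the 6 genes past 1.5-fold in macrophage-like cells were within 1.5 times of those reported, except that 0 in place of 1 was past it upward at 7 dpf when the macrophage classes were weighted equally, since *Fcgrt* then stood at 1.42. There *Fcgr1* ranged from 0.26 to 0.30 at 4 dpf and from -0.37 to -0.28 at 7 dpf on the log2 scale, *Fcgr4* from 0.42 to 0.49 and from -0.33 to -0.17, and *Fcgrt* from -0.67 to -0.60 and from 0.50 to 0.68, which includes equal weights for the macrophage classes, an alternative chosen after seeing the data, as was the limit on reference UMIs. With *Fcgr3* and *Fcgr4* alone as activating receptors, the activating to inhibitory ratio, in the order control 4 dpf, control 7 dpf, RA 4 dpf and RA 7 dpf, was 0.803, 0.907, 0.878 and 0.895 in all macrophage-like cells, 0.928, 0.901, 0.911 and 0.786 in *Arg1*-high cells, 0.777, 0.913, 0.908 and 0.961 in MHC class II-high cells and 0.727, 0.905, 0.837 and 0.916 in resident-like macrophages. Its RA to control change at 4 dpf was then 1.09-fold in all macrophage-like cells and 0.981-fold in *Arg1*-high cells. Thinning to 4000 UMIs gave a ratio of 0.972 in *Arg1*-high cells at 7 dpf in RA callus and a change of 1.00-fold in cluster 12 at 7 dpf. Without integration the log2 ratio between times of *Fcgr3* in RA resident-like macrophages was -0.060, of *Fcer1g* in RA neutrophil-like cells 0.0049 and of *Fcgr4* in control cluster 12 -0.0010, and the RA to control log2 ratio was 0.018 for *Fcer1g* in monocyte-like cells at 7 dpf and 0.22 and 0.26 for *Fcgr1* and *Fcgr2b* in osteoclast-like cells at 4 dpf. In control osteoclast-like cells the ratio between times was 0.0046 for *Fcer1g* with the looser cell filter and -0.76 for *Fcgrt* at resolution 0.5. Apart from the values that follow from leaving *Fcgr1* out of the ratio, the cause of these changes was not tested. The looser filter kept 140, 193, 421 and 89 neutrophil-like cells. Cluster 12 had no counterpart of its name with that filter or at resolution 0.5. Unthinned cells moved 166 of 210 shares of cells with a UMI, which depth sets.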

Other observations

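*Clec4e*, *Clec4n* and *Clec4d*, other receptors that signal through the *Fcer1g* chain, differed between RA and control macrophage-like cells more than the chain itself. Of 8 genes listed around this chain and its sister adaptor, 5 had at least 50 UMIs. At 7 dpf *Clec4e*, a receptor for damaged cells and mycobacterial glycolipid, was 64.9 CPM in control and 99.2 CPM in RA callus, a ratio of 1.53 (1.42 to 1.64). *Clec4n*, which binds fungal mannans, was 463 and 248 CPM, a ratio of 0.537 (0.517 to 0.557), and *Clec4d*, the partner of *Clec4e*, was at 0.747 (0.719 to 0.775). At 4 dpf the same 3 genes were at 1.16, 0.787 and 0.858, and 0 of the 5 were past 1.5-fold, beside 1.27% of genes higher and 2.81% lower. At 7 dpf 1 of the 5 was past it upward and 1 downward, beside 3.37% and 1.58% of genes. *Pirb*, also among the 5, was past it at neither time. Macrophage clusters held different shares of the cells, and by cluster at 7 dpf *Clec4n* was lower in RA callus in 5 of 5 clusters (0.328 to 0.787), *Clec4d* lower in 3 of 5 with the intervals of the others including 1, and *Clec4e* higher in 3 of 5 and lower in cluster 3 (0.515). With the 3 macrophage classes weighted equally the ratios were 1.75 for *Clec4e*, 0.537 for *Clec4n* and 0.785 for *Clec4d*. *Tyrobp*, the sister adaptor, was at 0.888 and 0.922 at 4 and 7 dpf.

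A cluster that could not be named, led by the granule genes *Elane*, *Ctsg*, *Prtn3* and *Mpo* and by cycling genes, held *Fcer1g* at 1174, 1067, 735 and 1156 CPM and *Fcgr2b* at 187, 158, 101 and 114 CPM in the control 4 dpf, control 7 dpf, RA 4 dpf and RA 7 dpf libraries, on 224, 113, 240 and 31 cells. Its *Fcgr1* was lowest in RA callus at 4 dpf, at 30.2 CPM beside 56.4 to 73.2 CPM in the other libraries. This was not particular to *Fcgr1*, since the RA to control intervals of all 6 genes lay below 1 at 4 dpf. The share of all genes with such intervals is not given here. The activating to inhibitory ratio changed 1.02-fold (0.897 to 1.17) in that comparison.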
